A study of Mus musculus with 3 samples.

Results

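The genes described here make 7SK RNA and the proteins that hold or form the kinase P-TEFb in mouse macrophages. They are Rn7sk, Hexim1, Larp7, Mepce, Cdk9, Ccnt1 and Ccnt2, taken by gene symbol, and all 7 were found among 55536 annotated genes in each of 3 libraries. The libraries hold total RNA of the cytosolic fraction of primary C57BL/6J bone-marrow-derived macrophages, prepared after removal of ribosomal RNA from a starting quantity of 1 µg. The cells had received 100 ng/ml lipid A, the inflammatory core of bacterial lipopolysaccharide, for 25 min. The 3 libraries are biological replicates 1 to 3 of this single condition and all cite the same donor record, and sex and age were not collected. No untreated cells, other times or nuclear fractions are analysed here, so every value is a level in stimulated cytosolic RNA, and no change with lipid A can be read from it.

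P-TEFb consists of the kinase Cdk9 and a cyclin T subunit, and it phosphorylates RNA polymerase II and the pausing factors NELF and DSIF, which lets paused polymerase move into productive elongation. Much of the P-TEFb of a cell is held inactive in a ribonucleoprotein built on 7SK RNA. In that particle Mepce caps the 5′ end of the RNA, Larp7 binds its 3′ end, and Hexim1 or Hexim2 binds both the RNA and the kinase and inhibits it. The particle is best known from nuclei, and in macrophages the release of paused polymerase is a step in the induction of inflammatory genes.

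7SK is the one member that acts as an RNA, and its sequence is shown because its ends carry the known protein contacts. The gene Rn7sk spans chr9:78175303-78175633 on the minus strand of mm10 and gives a single annotated transcript of 331 bases with a GC content of 58.0%. The first 120 bases (chr9:78175514-78175633, minus strand) and the last 60 bases (chr9:78175303-78175362, minus strand) follow, 5′ to 3′, as DNA letters from the GENCODE M21 transcript. Capitals in the first mark every copy of the motif GATC, which occurs in the 5′ hairpin that HEXIM proteins bind in human 7SK. Which of the marked copies lie in that hairpin was not examined. Capitals in the second mark the terminal T run, the U tail that LARP7 binds in human 7SK.
7SK 5-prime part: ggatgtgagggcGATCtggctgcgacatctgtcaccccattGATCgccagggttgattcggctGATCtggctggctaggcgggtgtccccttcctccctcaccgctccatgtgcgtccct
7SK 3-prime part: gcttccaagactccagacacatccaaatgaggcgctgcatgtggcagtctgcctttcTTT
The RNA held 3 copies of GATC, at bases 13 to 16, 42 to 45 and 64 to 67, and all 3 fell within the first 120 bases. GATC reads the same on both strands, and no copy overlapped another. Of 137364 annotated transcripts of 120 bases or more, 27.6% held at least 1 GATC in their first 120 bases and 0.521% held at least 3, while 2.75% ended in TTT. These matches describe the letters and do not show binding.

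The libraries held 53055764, 43620362 and 38623777 expected counts in replicates 1 to 3. Expected counts are reads assigned to genes by an estimate that can split a read. Levels of different genes are compared as TPM, in which counts are divided by an effective length and scaled to a fixed sum per library. Libraries are compared as CPM, in which counts are scaled to a fixed library sum with TMM factors, on a log2 scale. All 8 macrophage markers checked were at 1 TPM or more in every library, with summed levels from 5350 to 8444 TPM. None of the 3 T-cell, 3 B-cell or 3 stromal markers reached 1 TPM in every library, with highest sums of 0.05, 0.14 and 0.08 TPM. Among 4 neutrophil markers S100a8 alone reached it, at 9.60 to 14.9 TPM, and the neutrophil sum ranged from 9.94 to 15.9 TPM. The haemoglobin gene Hbb-bs and the stromal gene Pdgfra had 0 TPM in all libraries, and Ly6g had 0 TPM in replicates 1 and 3. The part of neutrophil RNA in the levels below was not tested.

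7SK was by far the most abundant member. Rn7sk had 91228, 79709 and 54251 TPM in replicates 1 to 3, a mean of 75060 ± 18920 TPM (SD, n = 3). Replicate 3 was the lowest, and every library was far above every library of the 6 mRNA members. These TPM values came from 1127570, 781657 and 440804 counts. Rn7sk thus took 9.12, 7.97 and 5.42% of all TPM but 2.13, 1.79 and 1.14% of all counts. The effective length the deposited tables gave the 331-base RNA was 119.62, 122.24 and 138.89 bases in the 3 libraries, and its TPM rests on these lengths. In bulk RNA, fewer cells with an RNA and less of it per cell cannot be told apart.

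**Figure D1:**
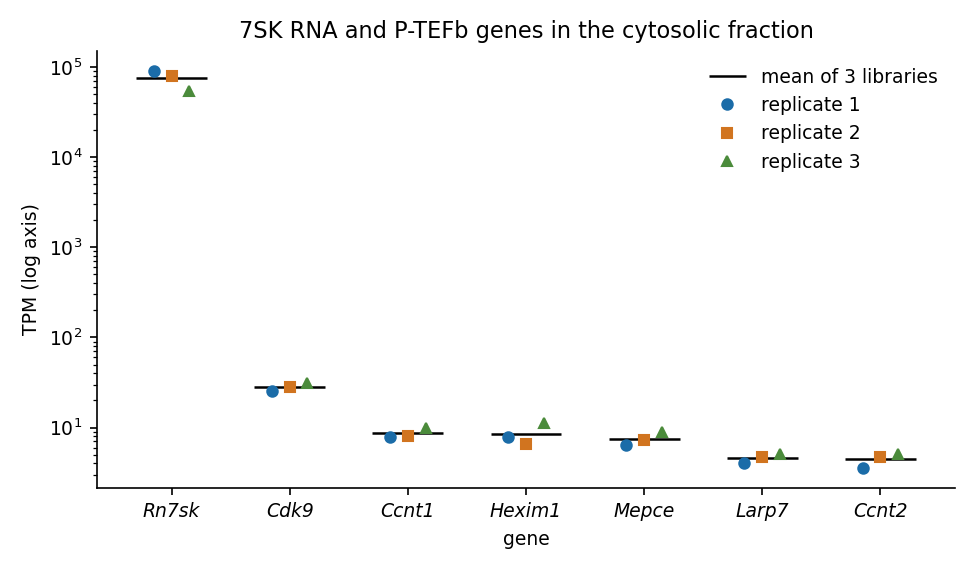
TPM of each member (log axis) in each library, with symbols for replicates 1 to 3 and a bar for their mean, ordered by mean. Rn7sk sits between 54251 and 91228 TPM, Cdk9 between 25.5 and 31.0 TPM, and the other 5 mRNAs between 3.56 and 11.4 TPM.

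Annotated near copies of 7SK took few reads. A search of all annotated transcripts found 11 genes that match it over 100 bases or more at 90% identity or more. Every one of these matches ended at or before base 249, so none reached the 3′ stretch printed above. The 11 genes together held 42, 26 and 33 counts in replicates 1 to 3. Gm24447, identical to 7SK over 241 bases, held 2, 2 and 3 counts, and Gm24146, 97.5% identical over 238 bases, held 32, 15 and 9. In the alignment-free tables, made from the reads without a genome alignment, the 11 genes held 766, 437 and 507 counts against 1134360, 786867 and 446618 for Rn7sk. Reads shared by such copies are assigned by estimate, so the split is uncertain, but even the larger sums are small beside Rn7sk. The nearest annotated gene, the noncoding C920006O11Rik, lies 280 bases away on the opposite strand and held 21, 13 and 19 counts.

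Hexim1 encodes the inhibitor that 7SK presents to P-TEFb (mm10 chromosome 11, 103116231 to 103119725, plus strand). It had 7.77, 6.57 and 11.4 TPM in replicates 1 to 3, a mean of 8.57 ± 2.49 TPM (SD, n = 3). Replicate 2 was low and replicate 3 high. The mean placed it 4260th among 22015 nuclear protein-coding genes. Its paralog Hexim2, which lies 12703 bases downstream and can take its place in the particle, had 0.58, 0.71 and 0.68 TPM. Hexim1 was 13.4, 9.25 and 16.7 times Hexim2 within the 3 libraries of the alignment-based tables. In the alignment-free tables Hexim2 had 2.04, 0.753 and 0.534 TPM and Hexim1 was 1.67, 2.25 and 4.50 times as high. Hexim1 was the higher paralog in every library of both kinds of table, while the size of the gap depended on the quantification.

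Larp7 encodes the La-related protein that binds the 3′ end of 7SK and protects it (chromosome 3, 127536714 to 127553349, minus strand). It had 4.02, 4.69 and 5.07 TPM, a mean of 4.59 ± 0.53 TPM (SD, n = 3). Mepce encodes the methyltransferase that caps 7SK (chromosome 5, 137781906 to 137787655, minus strand). It had 6.36, 7.28 and 8.99 TPM, a mean of 7.54 ± 1.34 TPM (SD, n = 3). The ranges of the pair did not overlap. Larp7 stood at 0.632, 0.644 and 0.564 of Mepce within the libraries, a mean log2 ratio of -0.71 ± 0.10.

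Cdk9, the kinase itself, was the highest of the 6 mRNAs (chromosome 2, 32705784 to 32713076, minus strand). It had 25.5, 28.2 and 31.0 TPM, a mean of 28.2 ± 2.77 TPM (SD, n = 3), and ranked 1420th, with 6.45% of nuclear protein-coding genes above it. Its lowest library exceeded the highest library of each other mRNA member. Within libraries Cdk9 was 3.43, 3.42 and 2.85 times Cdk12 and 5.84, 7.33 and 5.38 times Cdk7, the kinases of other steps of the polymerase II cycle. Cdk12 had 7.42, 8.24 and 10.9 TPM, and Cdk7 had 4.36, 3.85 and 5.76 TPM.

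Ccnt1 and Ccnt2 encode cyclins T1 and T2, the alternative partners of Cdk9. Ccnt1 (chromosome 15, 98538689 to 98570923, minus strand) had 7.82, 8.13 and 9.84 TPM, a mean of 8.60 ± 1.09 TPM (SD, n = 3). Ccnt2 (chromosome 1, 127774164 to 127808061, plus strand) had 3.56, 4.75 and 5.11 TPM, a mean of 4.47 ± 0.81 TPM (SD, n = 3). The ranges of the cyclins did not overlap, and Ccnt1 was 2.20, 1.71 and 1.93 times Ccnt2 within the libraries. Cdk9 was 2.24, 2.19 and 2.07 times the sum of both cyclins, a mean log2 ratio of 1.11 ± 0.06.

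From high to low the members ran Rn7sk, Cdk9, Ccnt1, Hexim1, Mepce, Larp7 and Ccnt2. The ranges over libraries of Rn7sk and Cdk9, of Cdk9 and Ccnt1, and of Mepce and Larp7 did not overlap. The ranges of Ccnt1 and Hexim1, of Hexim1 and Mepce, and of Larp7 and Ccnt2 did, so these neighbours did not differ beyond their spread. The design holds 1 group of 3 libraries, so no test of a difference was run. All 6 mRNA members were at 1 TPM or more in every library, where 41.3% of nuclear protein-coding genes were. Their median, 7.06, 6.93 and 9.41 TPM in replicates 1 to 3, lay close to that of the 9084 protein-coding genes at 1 TPM or more, which was 6.88, 7.23 and 9.24 TPM. Each of the 6 had its highest TPM in replicate 3, the library in which that background median was also highest. In the alignment-free tables each of the 6 was instead highest in replicate 1, where the median of the same 9084 genes was 3.32 TPM, beside 2.08 and 2.09 TPM in replicates 2 and 3. TPM therefore gives no order of the libraries for these mRNAs.

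Within each library 7SK lay far above the kinase it restrains and above the proteins it binds. Rn7sk was 3583, 2827 and 1750 times Cdk9 in replicates 1 to 3, a mean log2 ratio of 11.3 ± 0.53 (SD, n = 3). It was 11740, 12130 and 4776 times Hexim1, 22690, 17000 and 10700 times Larp7, and 14340, 10950 and 6035 times Mepce. In each of these 4 ratios replicate 3 was the lowest. With the annotated length in place of the effective length, an alternative chosen after seeing the data, Rn7sk was 1488, 1199 and 831 times Cdk9. The size of the ratio therefore depends on the length used, while the order of the libraries did not. A ratio of RNAs is not a ratio of proteins or of assembled particles.

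Over all 3 libraries, 7SK had the largest spread of the members. After TMM scaling Rn7sk had 21670, 18100 and 11150 CPM in replicates 1 to 3, and its SD of log2 CPM was 0.50, above that of 91.5% of 12744 genes. The exact Poisson 95% intervals of the 3 counts were far apart, from 21630 to 21710 CPM in replicate 1 and from 11120 to 11180 CPM in replicate 3, and they cover counting error only. Without replicate 3 the SD was 0.18, below the 0.24 of Hexim1 in the same setting, so the place of Rn7sk rests on that library. Rn7sk was 0.514 of its replicate 1 level in replicate 3 and 0.616 of its replicate 2 level.

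Hexim1 followed over all 3 libraries. It had 50.6, 40.1 and 55.5 CPM, and its SD of log2 CPM was 0.24, above that of 75.5% of genes. The Poisson interval in replicate 2, from 38.2 to 42.0 CPM, lay below those of the other libraries, which ran from 48.7 to 52.6 CPM in replicate 1 and from 53.2 to 57.8 CPM in replicate 3. Without replicate 2 the SD was 0.09. Hexim1 and Rn7sk did not move together: replicate 3 was the lowest library for Rn7sk and the highest for Hexim1.

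The other 5 mRNAs varied less than Hexim1 over all 3 libraries. The SD of log2 CPM was 0.04 for Mepce, 0.06 for Ccnt1, 0.07 for Cdk9, 0.11 for Larp7 and 0.13 for Ccnt2. With library totals in place of TMM factors it was 0.07 for Mepce and 0.09 for Ccnt1. Mepce had 31.7, 32.9 and 33.3 CPM and Cdk9 had 73.8, 75.4 and 68.3 CPM. For Larp7 and Mepce the Poisson intervals of the highest and lowest library overlapped. For Cdk9, Ccnt1 and Ccnt2 they did not. The share of all genes with such intervals apart was not counted, so this does not mark these members out. Without replicate 2, the highest library for Larp7 and for Ccnt2, the SD of Larp7 was 0.04 and that of Ccnt2 0.01. Without replicate 3 the SD of Cdk9 was 0.02 and that of Ccnt1 0.01, and without replicate 1 that of Mepce was 0.01. The median SD of the 6 mRNA members was 0.0899, beside 0.0905 for 4168 protein-coding genes in their range of abundance and 0.127 for all genes tested. Rn7sk, Hexim1 and Ccnt2, 3 of the 7 members, had an SD above that last median.

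No member was more than 2-fold apart between any pair of libraries. Of 10345 genes whose counts averaged at least 100, 1.5% differed by over 2-fold between replicates 2 and 1, 0.532% between replicates 3 and 1, and 2.86% between replicates 3 and 2. With such shares, 0 of 7 members is near the background. The counts of genes in the first pair were 141 higher and 14 lower in replicate 2, and in the last pair 87 higher and 209 lower in replicate 3.

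The low level of 7SK in replicate 3 was seen at similar size in Rpph1, another small RNA that RNA polymerase III makes. It was smaller in Rmrp and 7SL, described below, while Vaultrc5, on few counts, was highest in replicate 3. Rpph1, the RNA of RNase P, had 557197, 391173 and 229383 counts, and its log2 CPM deviated from its mean by 0.38, 0.13 and -0.51 in replicates 1 to 3. The deviations of Rn7sk were 0.41, 0.15 and -0.55. Rn7sk was 1.84, 1.82 and 1.77 times Rpph1 in TPM, a mean log2 ratio of 0.86 ± 0.03 (SD, n = 3), the steadiest ratio computed for Rn7sk. Rmrp, the RNA of RNase MRP, has 2 overlapping records on the same strand whose reads cannot be separated. Their sum was 112334, 159220 and 102871 counts, with deviations of -0.35, 0.42 and -0.08 and its highest level in replicate 2. Rn7sk was 5.85, 2.89 and 2.72 times that sum in TPM. The Rmrp record annotated as a ribozyme was by itself lowest in replicate 3, with a deviation of -0.38.

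7SL, the RNA of the signal recognition particle, was the most abundant RNA of this kind and was nearly even. Its near-identical genes Rn7s1 and Rn7s2, whose reads are split by estimate, had deviations between -0.12 and 0.10. Both were highest in replicate 1 and lowest in replicate 3, the order of libraries seen for Rn7sk, by smaller deviations. Rn7sk was 0.153, 0.135 and 0.0945 of their summed TPM. Vaultrc5, a vault RNA, had 23, 33 and 41 counts, with deviations of -0.628, 0.105 and 0.524, opposite to Rn7sk in replicates 1 and 3. In the alignment-based tables the effective length of Vaultrc5 was 3.01, 2.92 and 4.95 bases, and that of Rny1 and Rny3, which encode Y RNAs of 112 and 102 bases, was 0. Rny1 and Rny3 are therefore listed there at 0 whatever the reads held. The alignment-free tables gave 150, 165 and 168 counts for Rny3, 30, 20 and 60 for Rny1, and 81, 127 and 106 for Vaultrc5. The 8 RNAs of this list, with only the ribozyme record of Rmrp, together held between 670800 and 748000 TPM. Their level therefore sets much of the scale on which the mRNAs are read.

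Among 10344 other genes at this count minimum, 5 lay within 0.1 log2 units of the Rn7sk profile in every library, and 3 of them are protein-coding. Tox2, a gene for an HMG-box protein, was nearest at a largest difference of 0.00824. Cdkn1c, which encodes the cyclin-dependent kinase inhibitor p57, followed at 0.0162 and had 2640, 1794 and 1017 counts. Next came Rpph1 at 0.0436, the histone H3 gene Hist2h3b at 0.0768 and the noncoding Gm17066 at 0.0976. Likeness over 3 libraries describes these libraries. Scaling with library totals gave the same 5 genes, but it shifts all genes of a library alike. That check could therefore hardly change the list.

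Malat1, Neat1 and Kcnq1ot1, listed here as nuclear RNAs, followed another pattern than Rn7sk. Malat1, a nuclear speckle RNA, had deviations of -0.45, 1.37 and -0.92, and Neat1, the paraspeckle scaffold, had -0.52, 1.06 and -0.54. Kcnq1ot1, a chromatin-bound antisense RNA, had -0.78, 1.46 and -0.68, and Meg3 had 0 counts. Malat1, Neat1 and Kcnq1ot1 were all highest in replicate 2, although Kcnq1ot1 was only at 0.03, 0.17 and 0.05 TPM. Among the members, Larp7, Cdk9 and Ccnt2 were also highest there, by the smaller deviations of 0.12, 0.06 and 0.15. The share of all genes highest in replicate 2 was not counted, so this does not mark these members out. Rn7sk, Mepce and Ccnt1 were highest in another library, and Hexim1 was at its lowest in replicate 2. The part of nuclear RNA in the levels of the members was not tested.

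**Figure D2:**
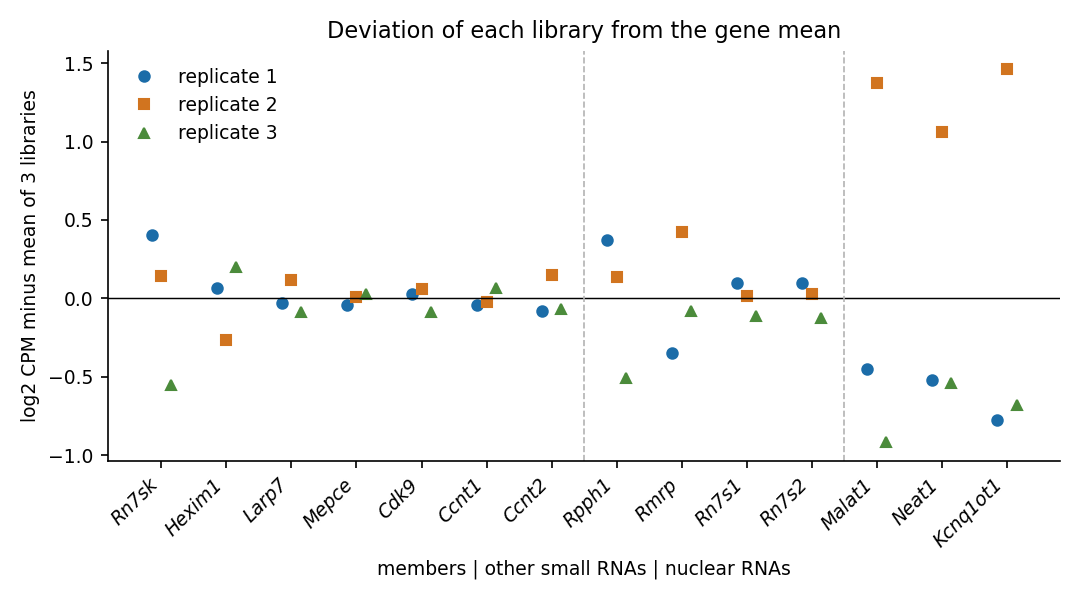
Deviation of log2 CPM from the mean of the 3 libraries for the 7 members, 4 other small RNAs and 3 nuclear RNAs, with symbols for replicates 1 to 3; Rmrp is the sum of both records. Rn7sk and Rpph1 are lowest in replicate 3, at -0.55 and -0.51, while Malat1, Neat1 and Kcnq1ot1 are highest in replicate 2 and 5 of the mRNA members stay within 0.15 of 0.

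Transcript types differed among the mRNA members. Hexim1 has 1 annotated transcript, and all TPM of Mepce lay on protein-coding transcripts, 83.2 ± 1.60% of it on a transcript of 3128 bases (SD, n = 3). Protein-coding transcripts held 98.9 ± 0.42% of Larp7 TPM and 92.6 ± 1.00% of Cdk9 TPM. The rest of Cdk9 lay on nonsense-mediated decay transcripts, with 4.40, 6.45 and 5.71%, and on retained introns, with 1.96, 1.91 and 1.61%. A coding transcript of 1733 bases alone held 90.2, 86.6 and 89.3% of the gene.

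Ccnt1 looked different on the TPM scale and on the count scale. Its coding transcript of 7397 bases held 57.5, 59.5 and 66.8% of the gene's TPM but 94.6, 94.0 and 96.0% of its counts. A processed transcript of 683 bases, annotated as noncoding, held 39.6, 32.7 and 25.2% of TPM on 149, 100.3 and 70.7 counts, which were 4.22, 3.38 and 2.45% of the gene's counts. The alignment-free tables gave this transcript 40, 7.9 and 5.6 counts. The short transcript thus carried much TPM on few reads, and the quantifications differed on it. The antisense gene 9330020H09Rik, on the opposite strand, matches bases 52 to 699 of the long coding transcript and held 57, 49 and 41 counts. The sources used here do not say whether counting used strand, so reads of that stretch may belong to either gene.

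In Ccnt2, as in Ccnt1, both quantifications placed much of the TPM on transcripts that are not protein-coding. Its protein-coding transcripts held 69.3, 55.3 and 69.3% of TPM, a mean of 64.6 ± 8.10% (SD, n = 3), with replicate 2 the lowest. Retained-intron transcripts held 20.0, 30.0 and 21.9%, and a processed transcript of 7640 bases held 10.7, 14.7 and 8.81%. That long transcript held 17.5, 25.3 and 15.1% of the gene's counts. The retained-intron transcripts held only 6.38, 9.94 and 6.38% of counts, and the coding transcripts 76.2, 64.8 and 78.5%. The alignment-free tables gave the coding transcripts 61.2, 46.7 and 63.7% of TPM, again lowest in replicate 2, the library in which Malat1, Neat1 and Kcnq1ot1 were highest. In the same tables the coding shares of Ccnt1, at 77.3, 65.4 and 76.2%, and of Cdk9, at 91.2, 86.8 and 89.8%, were also lowest there. In the alignment-based tables this held for Cdk9 but not for Ccnt1. The part of nuclear RNA in these shares was not tested.

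**Figure D3:**
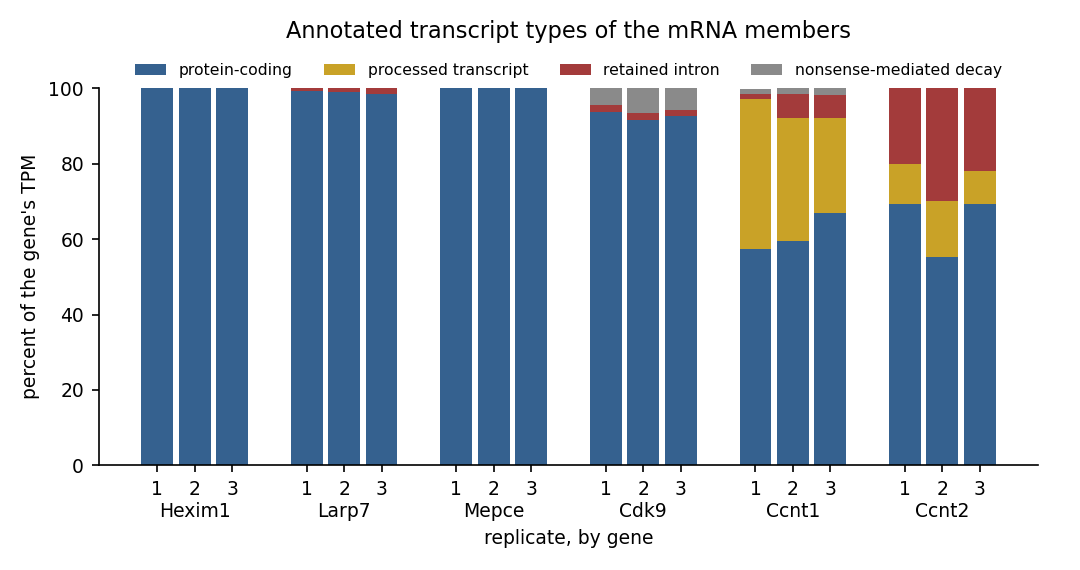
Percent of each mRNA member's TPM on each annotated transcript type in replicates 1 to 3, from the alignment-based tables. Hexim1, Larp7 and Mepce are almost wholly protein-coding, Ccnt1 carries 25.2 to 39.6% on 1 processed transcript, and Ccnt2 carries 20.0 to 30.0% on retained introns. As shares of counts, which are not drawn, these Ccnt1 and Ccnt2 values are smaller.

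Genes that overlap or resemble the other members added little. Larp7 contains Mir302a, Mir302b, Mir302c, Mir302d and Mir367 on the opposite strand, and Cdk9 contains Mir2861 and Mir3960 on its own strand. All 7 of these microRNA genes had 0 counts in both kinds of table, but their effective length in the alignment-based tables was 0, so a 0 there carries no information. The labels give a size range of 250 to 400 for the libraries, with no unit. Gm12666, a protein-coding copy 98.4% identical to Larp7 over 764 bases, also had 0 counts, as did the Mepce pseudogenes Gm15105 and Gm43530. Searches with the leading transcripts of Hexim1, Cdk9 and Ccnt2 gave 0 other genes at the same identity.

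The wider set of factors around P-TEFb was present with few exceptions. Of 51 genes on 8 lists of pathway partners, 47 were at 1 TPM or more in every library, again beside 41.3% of nuclear protein-coding genes. Among 11 genes for proteins found with 7SK, 10 were, from Hnrnpa2b1, an RNA-binding protein of the hnRNP family, with 99.6, 130.3 and 131.4 TPM, down to Hexim2, the exception, which the alignment-free tables put above 1 TPM in replicate 1. All 5 genes for factors that recruit or release P-TEFb were, from the acetyl-histone reader Brd2 at 40.8, 49.4 and 61.2 TPM to its relative Brd3 at 3.85, 4.56 and 5.48 TPM.

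The super elongation complex, a carrier of active P-TEFb, was the least complete list, with 7 of 10 genes at 1 TPM or more. Its scaffold gene Aff1 had 19.5, 19.4 and 26.0 TPM. Aff3, Ell3 and Eaf2 stayed below 1 TPM in every library, and Eaf2 had 0, 5 and 2 counts. These 3 are relatives of Aff1 and Aff4, of Ell and Ell2, and of Eaf1, each of which was at 1 TPM or more.

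The targets of P-TEFb were all detected. All 4 genes of the pausing complex NELF passed, from Nelfe at 11.6, 12.3 and 13.1 TPM to Nelfcd at 3.42, 3.62 and 4.41 TPM. Both DSIF genes did, with Supt4a at 24.2, 20.8 and 29.55 TPM and Supt5 at 15.3, 16.5 and 21.3 TPM. Of the polymerase II genes, Polr2a, whose tail P-TEFb phosphorylates, had 28.3, 32.35 and 38.4 TPM and Polr2b 6.59, 8.04 and 10.15 TPM. Polr2a was above Cdk9 in each library.

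Elongation factors and other kinases of transcription were detected too. All 8 genes of the PAF complex with Supt6 and its partner Iws1 passed, from Paf1 at 13.5, 18.5 and 19.9 TPM to Iws1 at 3.79, 4.78 and 5.88 TPM. All 8 genes of the other transcription kinases and their partners did, from Cdk13 at 10.06, 10.9 and 13.1 TPM to Mnat1, a subunit of the Cdk7 complex, at 2.61, 2.36 and 2.95 TPM. The median of the 51 genes was 7.48, 8.04 and 10.9 TPM, beside the 7.06, 6.93 and 9.41 TPM of the 6 mRNA members. Their median SD of log2 CPM was 0.0733 over the 48 that passed the filter on low counts.

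**Figure D4:**
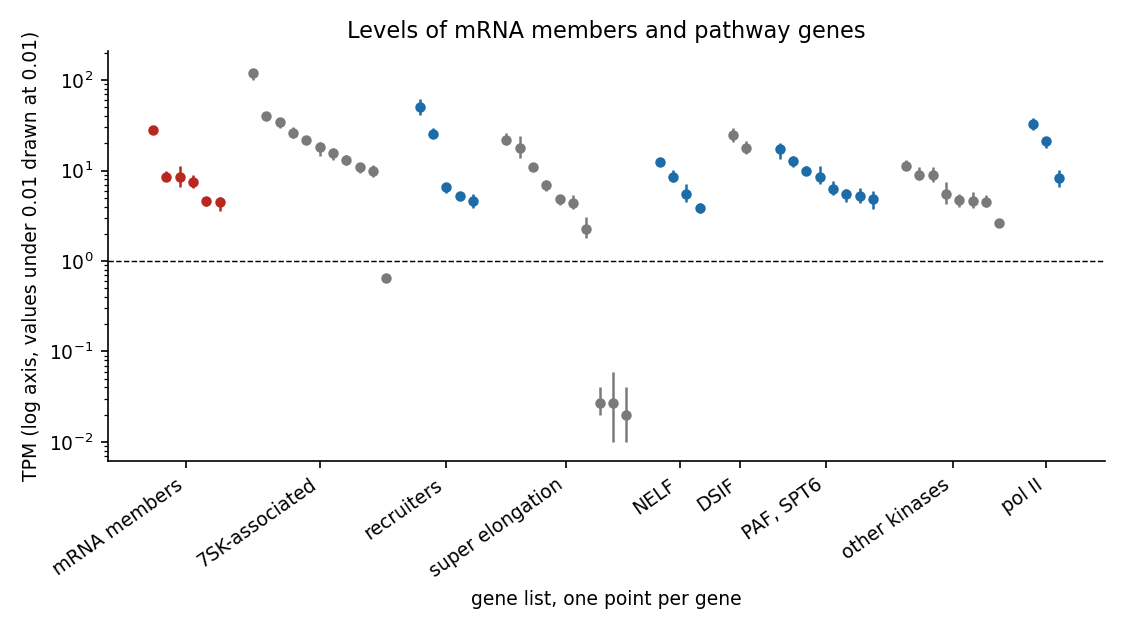
TPM (log axis) of the 6 mRNA members and of 51 pathway genes by list, each point the mean of 3 libraries and each line the range; the dashed line marks 1 TPM. The 6 mRNA members lie between 3.56 and 31.0 TPM, and 4 pathway genes, Hexim2, Aff3, Ell3 and Eaf2, lie below the line.

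Absolute TPM values depended on the quantification, and the members shared this with most genes. The alignment-based TPM of Rn7sk was above the alignment-free TPM by log2 ratios of 1.34, 2.21 and 2.47 in replicates 1 to 3, where the median of all genes was 1.09, 1.85 and 2.18. For the mRNA members the ratios ran from 0.99 for Ccnt2 in replicate 1 to 2.27 for Ccnt1 in replicate 3. In every library 6 of 7 members were over 2-fold apart, beside 71.1% of 9921 genes of mean TPM 1 or more. As a share of counts 0 of 7 were, beside 1.95% of these genes. In the alignment-free tables the pseudogenes Gm12896 and Gm12895 each held 8.74 to 25.7% of TPM and Rn7sk 3.60, 1.72 and 0.98%. Replicate 3 was the lowest library for Rn7sk in both kinds of table.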

How the data were processed

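Total RNA of the cytosolic fraction was measured in 3 libraries of 1 group, grouped by the labels. Each library has gene and transcript tables from transcriptome alignments and 1 transcript table made without them, on mm10 with GENCODE M21, per the file headers and accompanying texts. Expected or estimated counts were deposited unnormalized and can be fractional. TPM was scaled by the authors to a fixed total over all targets, so abundant small RNAs lower the others. Their tools' versions and any use of strand, not given in the sources used here, could shift reads between overlapping genes.

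Levels are alignment-based gene TPM, and alignment-free transcripts were summed to genes. For spread, expected counts were rounded, filtered (filterByExpr, 12744 genes kept) and converted to log2 CPM with TMM factors and a prior count of 2, using edgeR 4.0.16 under R 4.3.3. DESeq2 1.42.0 gave alternative size factors. Between 99.81 and 99.96% of counts lay on gene rows, and other rows were left out. Near copies were found with blastn 2.17.0. Figures and summaries used Python 3.11.15. The computation of spread was checked on simulated counts.

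Named genes are the 7 members, the highest and lowest gene of each pathway list, all listed polymerase III and nuclear RNAs, and the 5 genes nearest Rn7sk in profile. Other genes were named after their values were seen, as exceptions, relatives, overlaps or markers. Members and lists were chosen with earlier results of these data known. The labels do not show separate animals, and the spread may be technical. Chi-square values per degree of freedom between libraries were 63.0 to 112.0, so no library repeats another. Counts of 0 and Poisson intervals cover counting error only, since reads are not independent molecules. Alternatives covered quantification, scaling, filters, lengths, thresholds and leaving out each replicate. The result of 1 marker list is not reported here.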

Additional observations from a re-analysis of the deposited data

How the results depend on the processing

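Of 89 alternative values for the comparisons, 73 stayed within the spread between replicates or within 1.5 times a count, and 16 moved. No log2 ratio changed sign, and the counts and percentages among these values cannot. Some of the 73 were fixed by construction. Scaling over protein-coding genes leaves ratios between mRNAs as they are, and library totals leave the genes nearest Rn7sk in profile as they are. Of 115 values for single members, 33 moved, among them the TPM means in other tables and scales, and the SD of Mepce and Ccnt1 with library totals. The mean log2 ratio of Rn7sk to Cdk9, 11.3, was 10.2 with annotated lengths, a choice made after seeing the data. That of Rn7sk to Rpph1, 0.86, was 0.69 with each RNA scaled over protein-coding genes plus itself, which gives the pair different denominators, and 0.93 with annotated lengths. That of Ccnt1 to Ccnt2, 0.95, was 0.67 in the alignment-free tables. That of Cdk9 to the cyclins T, 1.11, was 1.06 with a pseudocount of 1, 1.69 over protein-coding transcripts alone and 0.99 with annotated lengths. The share of Rn7sk, 7.51% of TPM, was 2.10% in the alignment-free tables. Members with an SD above the median were 1 instead of 3 without the filter. At a minimum mean count of 20, 495 genes were over 2-fold higher and 40 lower in replicate 2 against 1, 114 higher and 80 lower in replicate 3 against 1, and 186 higher and 634 lower in replicate 3 against 2. Members over 2-fold apart between quantifications were 6 by TPM and 0 by share of counts. The cause of these shifts was not tested, apart from lengths, denominators and the lower minimum, which act by construction. No paired analysis was possible because all libraries belong to 1 group.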
